A study of Mus musculus with 4 samples.

Results

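Imprinted genes are genes of which mainly the copy inherited from the mother or mainly the copy from the father is read, a choice held by DNA methylation marks set in the germ line. The 10 imprinted genes described here, Dlk1, Meg3, Rian, Mirg, Nnat, Igf2, H19, Peg3, Plagl1 and Grb10, were chosen by name from the 54532 genes of an expression table of mouse pancreatic islets. All 10 were present in the table, each once, and 7 were high enough to be compared between groups. The mice were C57BL/6 males of 10 to 12 weeks. Islets of wild-type mice gave 2 libraries (WT1 and WT2) and islets of mice with the miR-29a/b-1 transgene gave 2 (TG1 and TG2). Per the series title the transgene overexpresses these microRNAs in pancreatic beta cells, the insulin-secreting cells of the islet. The labels name neither the promoter that drives it nor the mouse line, and do not say whether a library holds 1 mouse or a pool, so p-values here reflect the spread among 4 libraries, part or all of which may be technical.

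Several of these genes act in growth and in hormone-producing cells. Dlk1 encodes a membrane protein related to Notch ligands, and it lies on chromosome 12 beside the noncoding RNA genes Meg3, Rian and Mirg, which are read from the maternal copy and hold many microRNAs and small nucleolar RNAs, while Dlk1 is read from the paternal one. Igf2 encodes a growth factor read from the paternal copy, and its neighbour H19 a noncoding RNA read from the maternal copy. Peg3 and Plagl1 encode zinc finger proteins and Nnat a small membrane protein of the endoplasmic reticulum, all from the paternal copy. Grb10 encodes an adaptor that binds the insulin receptor and restrains its signal, and outside the brain it is read mainly from the maternal copy. In humans, extra expression of PLAGL1 is known to cause transient neonatal diabetes, and neuronatin, the product of Nnat, is known to aid the processing of preproinsulin.

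On GRCm38 the genes lie in separate places, given here as the table has them. On the plus strand of chromosome 12 are Dlk1 (109452823 to 109463336, protein coding), Meg3 (109541001 to 109571726), Rian (109603940 to 109661716) and Mirg (109729764 to 109749460), in this order. Chromosome 7 holds Peg3 (6703892 to 6730431, protein coding) and, far from it, H19 (142575529 to 142578143) and Igf2 (142650766 to 142666816, protein coding), all on the minus strand. Plagl1 (chromosome 10, 13060504 to 13131694) and Nnat (chromosome 2, 157560078 to 157562522) are on the plus strand and Grb10 (chromosome 11, 11930508 to 12038683) on the minus strand, and all 3 are protein coding. Levels refer to all exons of a gene.

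The microRNAs of the transgene bind messenger RNAs through their seed, bases 2 to 8, which is the same in both and is in capitals here (mature sequences from RefSeq, GRCm38.p6). They are shown because they are what the transgene adds. In the table Mir29a had 3 reads in WT2 and 0 in the other libraries and Mir29b-1 had 0 throughout, so these libraries do not check the transgene.
miR-29a-3p, chr6:31062673-31062694, minus strand: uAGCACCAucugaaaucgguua
miR-29b-3p, chr6:31063025-31063047, minus strand: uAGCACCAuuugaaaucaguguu
The 7 bases that pair with this seed, TGGTGCT on the transcript strand, were sought in the longest GENCODE M21 transcript of each gene. Of the 10 imprinted genes, 5 held at least 1 match, and 31.4% of the 12705 compared genes with a transcript did. Meg3 held 4 matches in 14548 bases (0.275 per kilobase, against 0.124 over all compared genes), and 0.49% of the compared genes held at least 4. Dlk1, Igf2, H19 and Peg3 held 1 each, and Rian, Mirg, Nnat, Plagl1 and Grb10 held 0. The Meg3 matches lie in noncoding exon sequence, and 3 of them are shown with 10 bases on each side, the match in capitals, on the plus strand of GRCm38. The Peg3 match lies in the coding sequence, on the minus strand.
Meg3, chr12:109566446-109566452: tcacttgaccTGGTGCTttgggcctct
Meg3, chr12:109568734-109568740: tcatggtggcTGGTGCTgctggttgtg
Meg3, chr12:109571693-109571699: tagtggctcaTGGTGCTttcaataaat
Peg3, chr7:6711334-6711340: cttttgagtgTGGTGCTgagatgagac
A match is a description of the sequence and does not show that miR-29 binds there.

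RefSeq gave 14 promoter windows for 9 of the genes (GRCm38.p6, from 250 bases before to 50 bases after each transcript start). H19 had none in the table. CpG dinucleotides, the bases that carry DNA methylation, numbered from 0 in the window of Rian to 45 in the first window of Grb10, against a median of 7 over all 32851 windows. As many as in Grb10 were found in 1.93% of all windows. The 4 windows shown belong to the genes that differed most between libraries and to the most abundant member, and their capitals mark 2 motifs sought on both strands. The hexamer TGCCGC, which the imprint-keeping zinc finger protein ZFP57 recognises when its CpG is methylated, was in 5 of the 14 windows and in 11.6% of all windows. The cAMP response element TGACGTCA, which reads the same on both strands, was in the Meg3 and Peg3 windows and in 1.79% of all windows. The motifs do not overlap each other, and both were chosen with results known, so the counts only describe the letters of these windows.
Meg3, chr12:109540746-109541045, plus strand: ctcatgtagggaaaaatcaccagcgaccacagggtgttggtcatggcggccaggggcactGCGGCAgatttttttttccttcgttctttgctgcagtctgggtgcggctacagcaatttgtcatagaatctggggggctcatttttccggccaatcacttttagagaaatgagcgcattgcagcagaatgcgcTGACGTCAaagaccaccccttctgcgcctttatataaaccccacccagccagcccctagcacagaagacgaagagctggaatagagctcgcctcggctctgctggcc
Plagl1, chr10:13090582-13090881, plus strand: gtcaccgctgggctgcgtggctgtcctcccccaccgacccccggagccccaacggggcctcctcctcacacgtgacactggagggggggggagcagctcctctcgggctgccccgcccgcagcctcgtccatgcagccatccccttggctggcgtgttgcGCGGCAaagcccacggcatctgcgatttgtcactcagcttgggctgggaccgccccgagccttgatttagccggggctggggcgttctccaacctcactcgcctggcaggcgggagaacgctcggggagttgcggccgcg
Nnat, chr2:157559828-157560127, plus strand: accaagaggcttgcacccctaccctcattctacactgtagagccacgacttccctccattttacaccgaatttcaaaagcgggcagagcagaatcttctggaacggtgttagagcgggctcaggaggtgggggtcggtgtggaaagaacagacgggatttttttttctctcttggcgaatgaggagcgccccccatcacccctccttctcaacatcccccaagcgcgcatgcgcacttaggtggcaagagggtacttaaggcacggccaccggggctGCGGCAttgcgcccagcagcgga
Peg3, chr7:6730370-6730669, minus strand: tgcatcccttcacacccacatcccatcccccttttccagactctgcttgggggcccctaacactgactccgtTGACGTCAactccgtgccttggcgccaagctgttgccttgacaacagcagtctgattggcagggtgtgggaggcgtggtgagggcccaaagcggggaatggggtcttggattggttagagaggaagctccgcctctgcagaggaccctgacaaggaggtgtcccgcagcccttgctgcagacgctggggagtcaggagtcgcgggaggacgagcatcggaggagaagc
The Meg3 window holds both motifs, those of Plagl1 and Nnat the hexamer, and that of Peg3 the cAMP response element.

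Expression is given in FPKM, a read count divided by gene length and library size, so levels can be compared between genes. Reads assigned to genes came to between 21670854 and 27080907 per library. Each library carries a number in its title, so that WT1 and TG1 share the number 1, and the labels do not say what the number stands for. Libraries of the same number resembled each other more than libraries of the same genotype: Pearson's r of log2(FPKM + 1) over the 12716 genes compared was 0.985 and 0.989 within the numbers and 0.950 within each genotype, where genes are not independent replicates. The insulin gene Ins2 lay between 89340 and 211700 FPKM, the glucagon gene Gcg between 11520 and 12620, and the somatostatin gene Sst between 2653 and 4713, so the defining hormone genes of islets were abundant. The acinar gene Cpa1 lay between 59.7 and 497, the endothelial gene Pecam1 between 7.75 and 8.87 and the fibroblast gene Col3a1 between 1.1 and 1.94. Summed levels of marker lists also moved with the number. Of acinar markers, genes of the exocrine pancreas, the sum over 18 genes was 5442 FPKM in WT1 and 7360 in TG1 against 1159 in WT2 and 1993 in TG2, so that it was also higher in the transgenic library of each number. The sum over 9 markers of Schwann cells and neurons was 75.1 to 82.3 against 44.7 to 48.5, and over 7 markers of delta, PP and epsilon cells 8219 to 8541 against 15213 to 15285. The 10 beta cell markers summed to 151540 and 223828 in number 1 and to 271466 and 286857 in number 2. The 8 alpha cell markers summed to 13485 to 14322 in number 1 and 13479 to 14159 in number 2, sums made mostly of Gcg. Singly, the limma test described below called 4 of the 8 higher in number 2 and 0 lower, with a median log2 difference of 0.55. Of all genes it called 10.1% higher and 10.6% lower. No gene of these 5 lists was at 0 in every library. In bulk islet RNA, fewer cells of a type and less RNA per cell cannot be told apart.

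**Figure D1:**
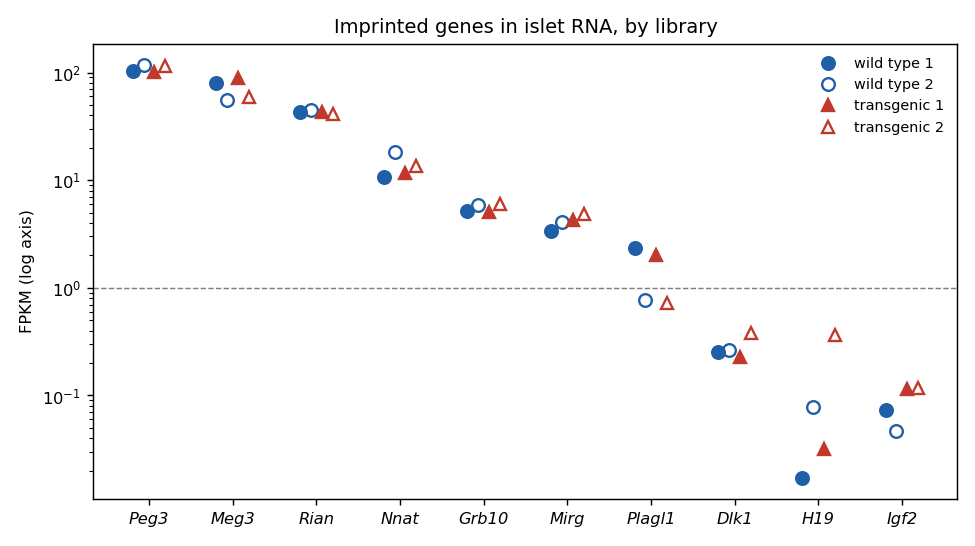
FPKM of the 10 imprinted genes (log axis) in each of the 4 libraries, ordered by mean level; circles are wild type, triangles transgenic, filled symbols number 1 and open symbols number 2, and the dashed line marks 1 FPKM. Peg3, Meg3 and Rian lie uppermost, and Dlk1, H19 and Igf2 lie below the dashed line. Filled symbols lie above the open ones for Meg3 and Plagl1, and below them for Peg3, Nnat, Grb10, Dlk1 and H19.

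The mean level of the imprinted genes ran from 109 FPKM for Peg3 to 0.0880 for Igf2. Peg3 was at 103 FPKM in WT1, 118 in WT2, 100.2 in TG1 and 116 in TG2, rank 238 by mean among all genes in the table. Meg3 followed at 80.2 in WT1, 55.7 in WT2, 88.7 in TG1 and 58.8 in TG2, and Rian at 43.2, 44.9, 43.3 and 41.6 in the same order. The ranges of these 3 genes did not overlap, so their order held in each library, and their means exceeded those of 98.1%, 96.9% and 94.2% of the genes compared. Rian was the steadiest, with all 4 libraries within 41.6 to 44.9. Nnat lay at 10.6 in WT1, 18.3 in WT2, 11.6 in TG1 and 13.7 in TG2. Its range did not overlap with that of Rian above it or of Grb10 below it, which was at 5.22 in WT1, 5.94 in WT2, 5.01 in TG1 and 5.98 in TG2. Mirg, below Grb10 in every library, was at 3.35 in WT1, 4.06 in WT2, 4.29 in TG1 and 4.89 in TG2. Plagl1 was at 2.33 in WT1, 0.774 in WT2, 2.0 in TG1 and 0.730 in TG2, so that its libraries fall into a higher pair, number 1, and a lower pair, number 2.

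Dlk1, Igf2 and H19 were below the level compared, at least 1 FPKM in at least 2 libraries. Dlk1 had 34 reads in WT1, 39 in WT2, 33 in TG1 and 45 in TG2, or 0.252, 0.266, 0.226 and 0.379 FPKM, and the exact 95% Poisson intervals of these levels all overlap (0.174 to 0.352, 0.189 to 0.363, 0.156 to 0.318 and 0.276 to 0.507). It was thus measurable in every library, above the 0.0205 to 0.0252 FPKM that a count of 0 would allow, at 3 reads. These intervals and floors describe counting error alone, because the same molecule can be read more than once. H19 had 1 read in WT1, 5 in WT2, 2 in TG1 and 19 in TG2. The interval of TG2, 0.221 to 0.574 FPKM, lies above those of the other 3 libraries, of which the highest upper bound is 0.183, so this library alone sets the mean of its group. Igf2 had 10 reads in WT1, 7 in WT2, 17 in TG1 and 14 in TG2, with overlapping intervals. Of the exon bases of Igf2, 64.5% are shared in GENCODE M21 with Igf2os on the opposite strand and with Gm49394, and counting can leave out reads that fit more than 1 gene, so the low level of Igf2 is uncertain. Igf2os and Gm49394 themselves had at most 6 and 2 reads in a library. Dlk1, Peg3 and Grb10 share no exon base with another gene, Nnat shares 87 of its 1829 bases with the small RNA gene Gm23134, and the other members share 0.49% to 9.15%.

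Meg3, Rian and Mirg dominated their domain. The stretch of chromosome 12 from Dlk1 to Dio3, 109452823 to 110281097 on GRCm38, held 118 genes of the table, 67 of which had at least 1 read. Of all reads in the domain, Meg3, Rian and Mirg took 98.8% in WT1, 98.9% in WT2, 99.1% in TG1 and 99.0% in TG2. The protein-coding genes Rtl1, a retrotransposon-derived gene read from the paternal copy, and Dio3, which encodes an enzyme that inactivates thyroid hormone, were low: Rtl1 had 90 reads in WT1, 67 in WT2, 75 in TG1 and 71 in TG2, and Dio3 had 2 reads in TG2 and 0 elsewhere. Begain, which lies before Dlk1 on the chromosome, had 8 to 16 reads. Dlk1, Rtl1 and Dio3 were thus below 1 FPKM in every library, while Meg3, Rian and Mirg were between 3.35 and 88.7. Other noncoding RNA genes of the domain were lower, such as Gm26945, within the span of Rian, at 0.791 to 1.75.

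**Figure D2:**
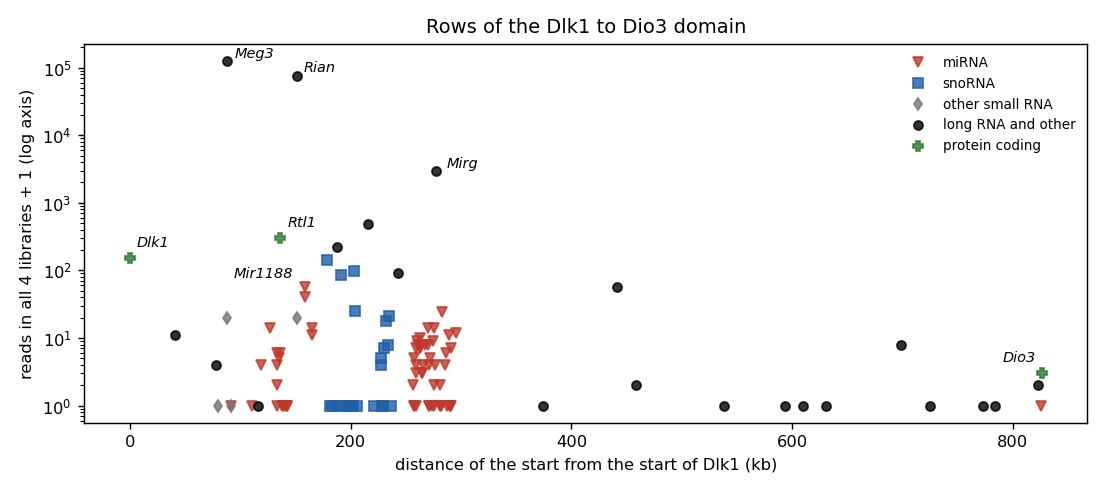
Reads in all 4 libraries plus 1 (log axis) of each of the 118 genes between Dlk1 and Dio3, against the distance of the gene's start from that of Dlk1; the symbol gives the gene type. Meg3, Rian and Mirg stand above all others, and genes without a read sit at the lowest line.

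The table also lists 94 small RNA genes in this domain, 67 of them microRNAs, of which 61 matched RefSeq by name. Their 113 mature microRNAs have 104 distinct seeds, 9 of them shared by 2 microRNAs each, and 0 have the seed of miR-29. An mRNA library of this kind is not made to capture mature small RNAs, so reads at these genes do not measure them. The reads differed with the position of the small gene: of 26 lying wholly inside exons of longer genes, 0 had a read, and of the 62 in no such exon, 48 did. Counting can leave out reads that fit more than 1 gene, so a count of 0 inside such an exon does not show absence of the RNA. These 26 include the 7 that lie within Rtl1. Among the small nucleolar RNA genes within Rian, Gm24564 had 39 reads in WT1, 32 in WT2, 45 in TG1 and 24 in TG2. DQ267102 had 20, 31, 20 and 25 in the same order, Gm23600 had 34, 15, 22 and 13, and Gm25357 had 5, 3, 6 and 10. Gm22205, which lies between Rian and Mirg, had 1, 7, 9 and 3 reads, and the microRNA gene Mir453, within Mirg, had 6, 3, 11 and 3.

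Inside Rian lie Mir341 and Mir1188, the microRNA genes of this domain with the most reads, whose mature sequences are shown with the seed in capitals.
miR-341-5p, chr12:109611521-109611541, plus strand: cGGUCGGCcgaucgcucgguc
miR-341-3p, chr12:109611556-109611576, plus strand: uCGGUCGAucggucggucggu
miR-1188-5p, chr12:109611841-109611861, plus strand: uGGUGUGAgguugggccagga
miR-1188-3p, chr12:109611877-109611901, plus strand: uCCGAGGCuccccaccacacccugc
Mir341 had 4 reads in WT1, 10 in WT2, 11 in TG1 and 14 in TG2. Mir1188 had 17 in WT1, 26 in WT2, 6 in TG1 and 7 in TG2. The genotypes did not overlap at either gene, with Mir341 higher and Mir1188 lower in transgenic islets, separations that 12.2% and 9.03% of all genes showed, while Rian, which contains both, differed by -0.05 ± 0.15. Neither gene passed the test of genotype (limma adjusted p = 1.00 for each, unadjusted p = 0.0795 and 0.00332). Both rest on few reads and say nothing of mature miR-341 or miR-1188.

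The comparison of genotypes asks whether imprinted transcripts differ in islets whose beta cells overexpress these microRNAs. None of the 7 compared genes passed the test: limma on log2(FPKM + 1) called 0 of them at an adjusted p under 0.05, as it called 0 of all 12716 genes (0% called; 83 genes had an unadjusted p under 0.05, none of them a member, and voom on the reads also called 0, with 32 at an unadjusted p under 0.05). The limma fit has no term for the number, so its standard errors include the spread between numbers. Fits with the number as a block, some of which called genes but 0 members, are given at the end. Mirg was the only one of the 7 whose genotypes did not overlap, with both transgenic libraries higher, a separation in this direction that 12.2% of all genes showed. Its log2 difference was 0.25 ± 0.15 (standard error, n = 2 per group), with 0.28 in number 1 and 0.22 in number 2 (limma adjusted p = 1.00), and it was 0.14 without WT1. Meg3, with its 4 seed matches, differed by 0.11 ± 0.30, with 0.14 in number 1 and 0.08 in number 2, so that the transgenic library was the higher in each. The pooled difference was -0.15 without WT2 and -0.18 without TG1, each of which leaves the numbers unbalanced between genotypes. Peg3 differed by -0.03 ± 0.19, with -0.03 in each number, and Plagl1 by -0.09 ± 0.43, with -0.15 and -0.04. Rian, Grb10 and Nnat took opposite signs in the 2 numbers. Of these Nnat moved most, by 0.12 in number 1 and -0.39 in number 2 (-0.14 ± 0.29 over all). The median over the 7 was -0.03 and over all genes 0.01. Marker sums also differed by genotype within each number: those of acinar, duct, endothelial, and delta, PP and epsilon markers were higher in the transgenic library, and those of beta cell, alpha cell and stellate cell markers were lower. Single genes did not all follow. In both numbers, 16 of 16 acinar markers compared were higher, 3 of 5 duct and 5 of 10 endothelial markers, with 0 lower. Of 7 delta, PP and epsilon markers 1 was higher and 2 lower. Higher and lower were 2 and 5 of 10 beta cell, 2 and 3 of 8 alpha cell and 2 and 2 of 5 stellate cell markers. Of all genes 33.5% were higher and 27.4% lower. For endothelial markers the sums were 101 in WT1, 126 in TG1, 84.6 in WT2 and 99.99 in TG2, and for alpha cell markers 14322, 13485, 14159 and 13479 in that order. Their part in these values was not tested.

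**Figure D3:**
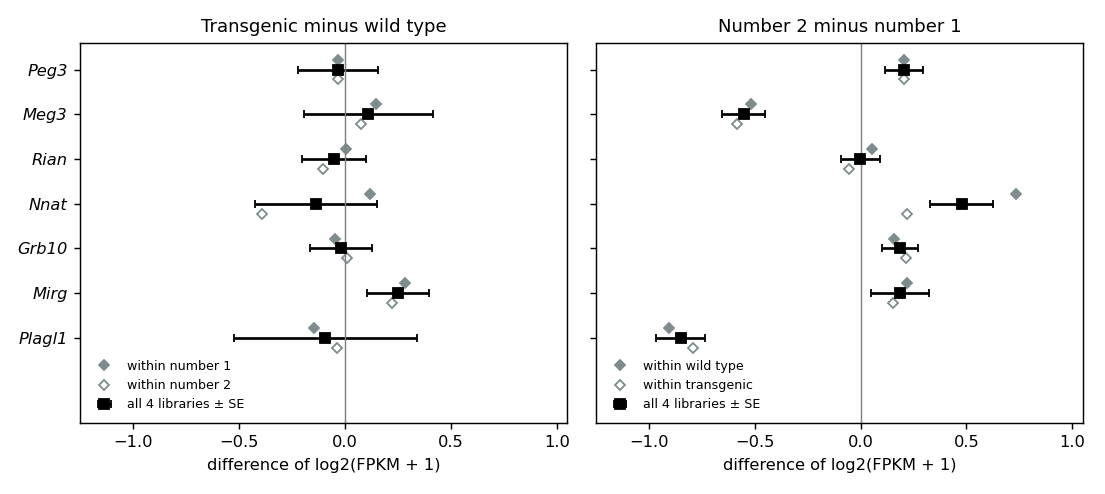
Differences of log2(FPKM + 1) for the 7 imprinted genes compared, transgenic minus wild type on the left and number 2 minus number 1 on the right; squares with bars are limma estimates ± SE over all 4 libraries and diamonds the difference within each number or each genotype. On the left the bars include the spread between numbers, and every bar reaches 0 except that of Mirg (0.25 ± 0.15). On the right Meg3 and Plagl1 lie below 0 in both genotypes, Peg3, Nnat, Grb10 and Mirg lie above it in both, and Rian takes both signs.

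Between the library numbers, Meg3 was lower in number 2, at 57.3 ± 2.2 FPKM (SD, n = 2) against 84.5 ± 6.0 in number 1. Plagl1 was at 0.752 ± 0.031 in number 2 against 2.16 ± 0.23 in number 1, and it entered the test only because both number 1 libraries exceed 1 FPKM, a filter that favours a lower value in number 2. Nnat was at 16.0 ± 3.3 against 11.1 ± 0.7, a difference that did not pass. The test took the number as its only term, so libraries of both genotypes served as replicates of a number. Limma called Meg3 lower, and also Plagl1, and 0 of the 7 higher, where it called 10.6% of all genes lower and 10.1% higher. The numbers did not overlap at Meg3 and Plagl1, which were lower in number 2, and at Peg3, Nnat and Grb10, which were higher, and 32.4% and 34.4% of all genes were separated in those directions. With Plagl1 favoured by the filter, nothing is read from these counts against the shares.

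Meg3 differed by -0.55 ± 0.10 on the log2(FPKM + 1) scale (limma adjusted p = 0.0202), with -0.52 within wild type and -0.59 within transgenic islets. Its call ended with no filter on low values (limma adjusted p = 0.0728, at the same difference) and without WT2 (-0.51 ± 0.20, adjusted p = 0.0862). Plagl1 differed by -0.85 ± 0.12 (limma adjusted p = 0.0102), with -0.91 within wild type and -0.79 within transgenic islets, and on the reads, where adding 1 FPKM does not shrink low values, by -1.52 ± 0.15 (voom with genotype as a term). With no filter Plagl1 was not called (limma adjusted p = 0.0676). Nnat differed by 0.48 ± 0.15 (limma adjusted p = 0.0729), with 0.73 within wild type and 0.22 within transgenic islets. On the reads it was called (voom, number as the only term, 0.52 ± 0.15, adjusted p = 0.0287), and also without TG2 (limma, 0.67 ± 0.18, adjusted p = 0.00859). It was not called by limma without WT1 (0.42), TG1 (0.54) or WT2 (0.28, adjusted p = 0.353). Peg3 and Grb10 were higher in number 2 by 0.20 ± 0.09 and 0.19 ± 0.08 without passing (limma adjusted p = 0.161 and 0.164). Mirg differed by 0.19 ± 0.14 (limma adjusted p = 0.356), between 0.045 and 0.33 with 1 library left out, and was called in voom with a genotype term after the GC step (0.27 ± 0.10, adjusted p = 0.0219). Rian differed by -0.0013 ± 0.0924 (limma adjusted p = 0.994). The sums of acinar, neural, beta cell, and delta, PP and epsilon markers given above moved with the same number. The sum of duct markers was 107 FPKM in WT1 and 113 in TG1 against 71.9 in WT2 and 88.9 in TG2. Singly, 4 of the 8 alpha cell markers also moved. The part of these markers in these differences was not tested.

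The ratio of a pair of genes within a library does not depend on how libraries are scaled, and Meg3 and Rian are neighbours on the same strand. Meg3 stood at 1.86 and 2.05 times the FPKM of Rian in WT1 and TG1 and at 1.24 and 1.41 times in WT2 and TG2. The numbers did not overlap, so Meg3 and Rian did not keep 1 ratio across the libraries. Mirg stood at 0.0775 and 0.0991 times Rian in number 1 and at 0.0904 and 0.118 times in number 2, where the numbers overlapped and the higher value of each number was the transgenic one. Exact permutation of 2 libraries against 2 cannot give a 2-sided p below 0.33, so these ratios were not tested. At Peg3, which starts next to Usp29, a neighbour read from the paternal copy in the other direction, the ratio of Peg3 to Usp29 stayed within 60.3 and 69.8 in the 4 libraries. Zim1, which lies beyond and is read from the maternal copy, did not keep step: Peg3 stood at 16.2 and 16.7 times Zim1 in number 1 and at 10.3 and 13.9 times in number 2. Nnat lies within an intron of Blcap (chromosome 2, 157556362 to 157571274) on the opposite strand and shares 0 exon bases with it. The ratio of Nnat to Blcap was 0.657 and 0.752 in number 1 and 1.10 and 0.949 in number 2, while Blcap itself lay at 16.1 FPKM in WT1, 16.6 in WT2, 15.4 in TG1 and 14.4 in TG2.

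**Figure D4:**
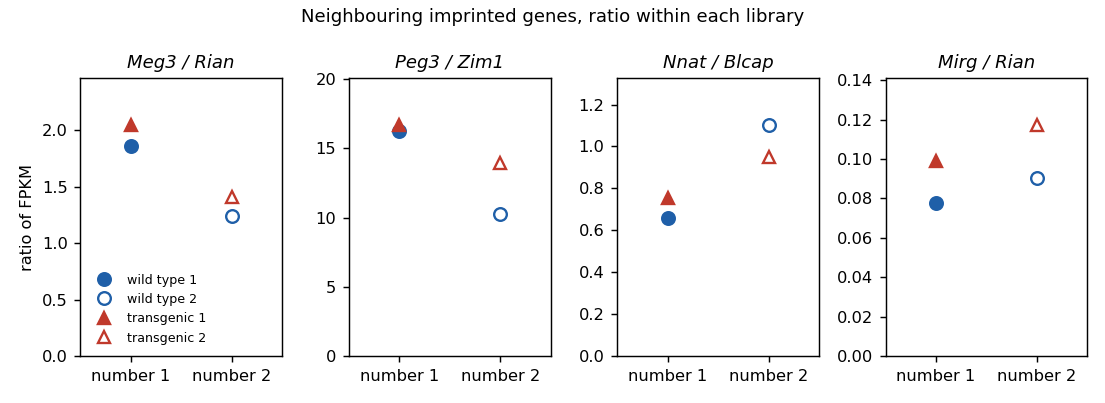
Ratio of FPKM between neighbouring imprinted genes within each library, by library number, each panel on its own axis from 0; circles are wild type and triangles transgenic. Meg3 over Rian and Peg3 over Zim1 are lower in number 2, Nnat over Blcap is higher there, and in Mirg over Rian the numbers overlap.

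Of 50 other imprinted genes listed, 30 were compared. The genotype fit called 0 of them. The genotypes did not overlap in 2 with transgenic higher and in 2 with transgenic lower, against 12.2% and 9.03% of all genes. The smallest p-values were those of Tssc4, at 42.9 FPKM in WT1, 41.3 in WT2, 53.3 in TG1 and 50.2 in TG2 (limma, unadjusted p = 0.122), and of Airn, a noncoding RNA that silences Igf2r on the paternal copy, at 2.40, 1.94, 1.69 and 1.65 in that order (unadjusted p = 0.187). By number, limma called 4 of the 30 higher and 4 lower in number 2, against 10.1% and 10.6% of all genes, and their median difference was -0.05 against 0.01 over all. Slc38a4, an amino acid transporter gene, was at 75.1 FPKM in WT1 and 57.6 in TG1 against 127 in WT2 and 126 in TG2 (0.93 ± 0.14, limma adjusted p = 0.0136). Ddc, whose enzyme makes dopamine and serotonin, rose by 0.46 ± 0.10, and Zim1 and the ubiquitin ligase gene Ube3a by 0.59 ± 0.15 and 0.44 ± 0.11 (limma adjusted p = 0.0279, 0.0462 and 0.0459). H13, a signal peptide peptidase gene, and Mcts2, a retrogene that lies inside it, both fell, with differences of -0.87 ± 0.15 and -0.79 ± 0.08 (limma adjusted p = 0.0172 and 0.00595). Nap1l5, another retrogene, fell with a difference of -0.78 ± 0.11 and Peg10 with -0.54 ± 0.12 (limma adjusted p = 0.0112 and 0.0300), and Peg10, like Plagl1, passed the filter only through number 1. Calls in both directions were found among paternally read genes, with 1 of 16 higher and 3 lower, and among maternally read ones, with 1 of 6 higher and 1 lower, while of 8 genes whose imprint depends on tissue or transcript 2 were higher and 0 lower.

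**Figure D5:**
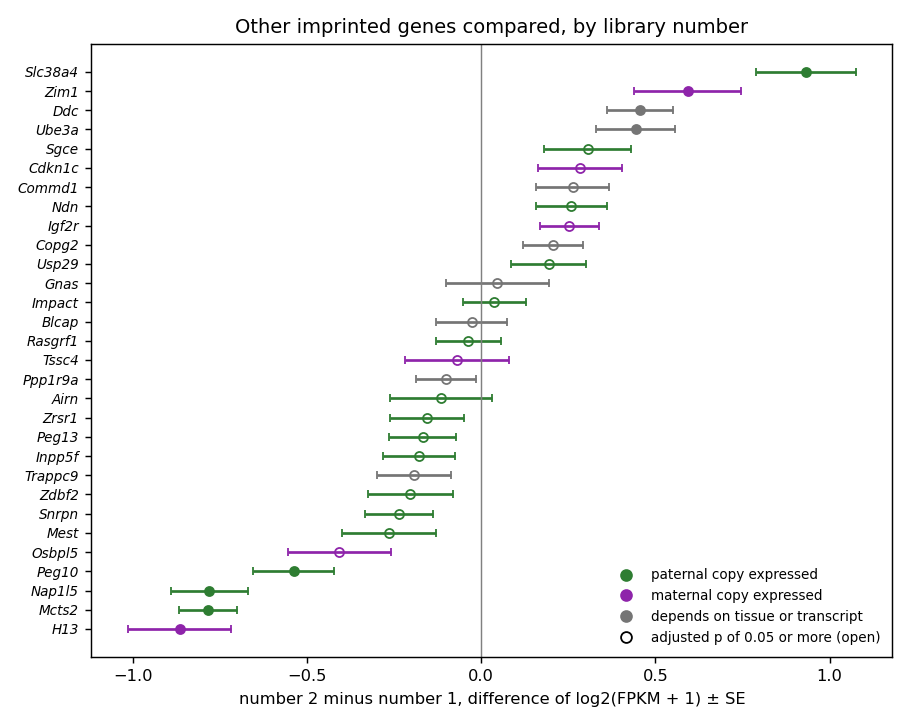
Number 2 minus number 1, as a difference of log2(FPKM + 1) ± SE from limma, for the 30 other imprinted genes compared; colours give the copy from which the gene is known to be read, and filled points have an adjusted p under 0.05. The 8 called genes lie at both ends, from H13 at -0.87 to Slc38a4 at 0.93.

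Genes that act with the imprinted ones were compared in 3 lists. Of 21 genes of the insulin-like growth factor system, through which Igf2 and Grb10 act, 11 were compared, and 0 were called by genotype. By number, Irs2, at 50.1 FPKM in WT1, 12.8 in WT2, 53.7 in TG1 and 18.7 in TG2, an adaptor of the insulin receptor, and Igfbp3, which binds insulin-like growth factors in the circulation, fell in number 2, with differences of -1.68 ± 0.18 and -0.45 ± 0.09 (limma adjusted p = 0.00595 and 0.0239), and 0 were called higher, against 10.6% of all genes called lower and 10.1% higher. In voom with genotype as a term 4 of the 11 were called lower and 3 higher. That fit called 2799 of all 12716 genes lower and 2746 higher. The receptor that clears IGF2, Igf2r, itself imprinted, was at 8.83 FPKM in WT1 and 9.33 in TG1 and at 11 in both number 2 libraries (limma adjusted p = 0.0895). The receptors Igf1r and Insr were present at 2.78 to 3.71 and 3.97 to 5.34 FPKM in all libraries. Igf2, which encodes 1 of their ligands, was at 0.116 or less, a level left uncertain by its shared exon bases. Of 27 Notch pathway genes, the pathway that Dlk1 is known to modulate, 17 were compared and 0 were called by genotype, though 16 lay above 0 in transgenic islets, with a median of 0.16. Of all 12716 genes, 6780 lay above 0, with a median of 0.01. Within numbers 1 and 2 the medians of the 17 were 0.15 and 0.09. In both numbers 12 of the 17 were higher and 1 lower, against 33.5% and 27.4% of all genes. The genotypes did not overlap in 3, all higher in transgenic islets, against 12.2% of all genes. The smallest genotype p-value of these Notch pathway genes was that of Hes1, a transcription factor gene that Notch induces (0.20 ± 0.12, limma, unadjusted p = 0.162). By number the protease gene Adam10 rose (0.47 ± 0.09, limma adjusted p = 0.0242) and the receptor gene Notch1 fell (-0.38 ± 0.09, limma adjusted p = 0.0416). Of 21 genes that keep imprints, 16 were compared and 0 were called by genotype. By number Cbx5, a heterochromatin protein gene, rose by 0.69 ± 0.12 and Ehmt1, a histone methyltransferase gene, fell with a difference of -0.35 ± 0.09 (limma adjusted p = 0.0174 and 0.0433). Zfp57 was at 0.0503 to 0.144 FPKM and Zfp445, the other zinc finger gene known to keep imprints, at 10.4 to 13.8.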

How the data were processed

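RNA of pancreatic islets was sequenced in 4 libraries, grouped by the genotype that the labels give. According to the protocols in the labels, RNA from frozen islets was taken up in Trizol and made into libraries with an Illumina TruSeq RNA kit. HTSeq 0.6.0 and GRCm38 are named per the submitters' processing notes; the aligner and the use of strand in counting are not given in the sources used here, so sense and antisense genes cannot be told apart. The authors deposited FPKM for 54532 genes with their lengths. FPKM times length gave whole multiples of 1 step per library, within 0.001, for 100% of values above 0; these were taken as reads. Of the gene IDs, 99.8% are in GENCODE M21, and all 10 members have the same position and exon length there.

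Genes with at least 1 FPKM in at least 2 libraries (12716) were compared by genotype and by library number with limma 3.58.1 in R 4.3.3 (eBayes with trend) on log2(FPKM + 1), a scale that understates differences of low genes. Each fit had 1 term, tests were 2-sided and p-values were adjusted by Benjamini-Hochberg over all genes compared, with a threshold of 0.05. Alternatives used voom (limma) on recovered reads, scaled by the library sizes that the deposited FPKM imply, some with a lowess curve on GC content (span 0.3) removed. Members, lists and the rule for named genes were chosen with earlier results of these data known, and the promoter motifs after the windows were seen. The rule names all members, the 4 genes of smallest p in each list and comparison, and in the domain Begain, Rtl1, Dio3 and the 8 small RNA genes with most reads; Igf1r, Zfp57, Usp29, Igf2os and Gm49394 were added after their values were seen. Some named items of the lists and sequences are not reported here.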

Additional observations from a re-analysis of the deposited data

Results flagged for a closer look

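In 3 of the 7 imprinted genes compared, transgenic minus wild type had opposite signs in the library numbers, with 1 library per genotype in each number, so the difference could not be tested. For Nnat the log2 difference in number 2 minus that in number 1 was -0.51, since it was 0.12 in number 1 and -0.39 in number 2. For Rian it was -0.11 and for Grb10 0.058.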

How the results depend on the processing

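Of 94 values of single imprinted genes by genotype under the alternatives, 82 kept direction and call and 12 reversed; 0 passed the threshold (lowest limma or voom adjusted p 0.0876, Nnat). With 1 library left out, the genotype difference ran from -0.13 to 0.088 for Grb10, -0.18 to 0.40 for Meg3, -0.50 to 0.23 for Nnat, -0.14 to 0.069 for Peg3 and -0.55 to 0.30 for Plagl1, changing sign in each. For Mirg it ran from 0.14 (without WT1) to 0.36, and for Rian from -0.080 to -0.024. Leaving out 1 library also leaves the numbers unbalanced between genotypes. Within numbers 1 and 2 the difference kept its sign for Meg3 (0.14 and 0.08) and Mirg (0.28 and 0.22). It also did for Peg3 (-0.03 in each) and Plagl1 (-0.15 and -0.04), but not for Grb10, Nnat or Rian. With the number as a replicate block, Mirg differed by 0.25 ± 0.08 in limma (adjusted p = 0.461) and by 0.31 ± 0.10 in voom (adjusted p = 0.105). In blocked voom it was 0.26 ± 0.10 with the GC curve removed (adjusted p = 0.347) and 0.38 ± 0.13 with library sizes summed from the reads (adjusted p = 0.0911). With voom and the number as a replicate block, Rian reversed to 0.13 with the GC curve removed, and with library sizes summed from the reads (chosen after seeing the data) Grb10 reversed to 0.043, Peg3 to 0.034 and Rian to 0.014. By number, 81 of 94 values kept direction and call, 3 lost the call, 6 gained it and 4, all of Rian, reversed. Rian reversed to 0.0081 when libraries were centred on their median and to 0.014 when scaled without Ins1, Ins2 and Iapp, and ran from -0.054 to 0.052 with 1 library left out.

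The labels do not pair libraries by number, and only 2 pairs exist; deviations from the genotype means correlated at 0.775 over 12716 genes. The replicate block with limma called 0 genes in each direction by genotype; with voom it called 204 higher and 34 lower, with the GC curve also removed 81 and 30, and with summed library sizes 290 and 10, of which 0 were members. By number, the 1279 higher and 1351 lower genes became 102 and 172 with no filter, 2636 and 3010 in voom with a genotype term after the GC step, 2746 and 2799 without the GC step (added after seeing the data), and 1422 and 3437 with summed sizes. With 1 library left out they ranged from 668 to 1142 (fewest without WT2) and from 587 to 1175 (fewest without TG1). The members called lower, 2, became 0 with no filter and 1 at a minimum of 5 FPKM, where Plagl1 was not compared, and ranged from 1 to 2 with a library left out. Those called higher, 0, became 1 in voom on the reads, 2 with a genotype term after the GC step, 1 without the GC step and 1 with summed sizes, and ranged from 0 to 1. Leaving out a library leaves 1 sample in an arm, which is assumed to vary like the others. The cause of these changes was not tested. Plagl1 could not be compared without WT1 or TG1. Depth limits H19, Igf2, Dlk1 and the small RNA genes, which rest on few reads.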
